A study of Mus musculus with 11 samples.

Results

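The genes of the translation initiation factors (symbols that start with Eif1 to Eif6) were followed through leukemic, pre-leukemic and normal mouse B cell precursors. The members were all rows with such a symbol, except the eIF2alpha kinases (Eif2ak genes) and the sex-linked eIF2 gamma subunits Eif2s3x and Eif2s3y. This gave 49 of the 24319 genes in the tables. One of them, Eif4e1b, was listed at 0 FPKM in all 11 libraries, and the other 48 passed the filter on low values and were tested. Levels are in FPKM, a fragment count adjusted for the length of the transcript and the size of the library, so genes can be set beside each other. FPKM sums still differed between libraries, so comparisons of libraries depend on the scaling.

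Initiation factors bring the ribosome to the start codon of an mRNA. The eIF4F complex binds the cap and unwinds the leader, eIF2 delivers the initiator tRNA and is recharged with GTP by eIF2B, eIF3 holds the small ribosomal subunit together with these factors, and eIF1, eIF1A and eIF5 govern the choice of the start codon before eIF5B joins the large subunit. Cap binding is held in check by the eIF4E binding proteins under the kinase complex mTORC1, and eIF2 by phosphorylation of its alpha subunit, and both controls respond to growth signals, nutrients and stress in lymphocytes.

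All groups were of the C57BL/6J strain. Leukemic cells (B-ALL, B cell acute lymphoblastic leukemia) were from the lymph nodes of 3 Ebf1+/- Pax5+/- animals, mice 686, 713 and 760, with 2 libraries each, and their labels give no Rag2 genotype. The dHet proB cells were Ebf1+/- Pax5+/- Rag2-/- cells of fetal liver, taken as c-Kit positive cells and grown on OP9 feeders with IL-7, Flt3 ligand and SCF (3 libraries), and the wt proB cells were sorted as Fraction BC from bone marrow of Ebf1+/+ Pax5+/+ Rag2+/+ mice (2 libraries). Ebf1 and Pax5 encode transcription factors that set and keep B cell identity, and no age was among the labels used here. Leukemia, tissue, culture and Rag2 genotype change together between the groups and cannot be told apart. Whether the libraries of dHet proB, or of wt proB, stem from separate animals or cultures is not in the labels. P-values therefore rest on the spread between these libraries, and that spread may be technical. One dHet proB sample carries the number 3 in its title and 2 in its source name, and it is called library 3 here.

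The depth of the libraries is unknown, since the values are FPKM and not counts. FPKM summed to 578240 to 638953 in the B-ALL libraries and to 505261 to 584543 in the proB libraries. All 12 B lineage markers were at 1 FPKM or more in the mean of every group, but their levels differed. Ebf1, Pax5, Blnk and Rag1 were lower in every B-ALL library than in every proB library. For each other B lineage marker, B-ALL overlapped with dHet proB, wt proB or both. Dntt had 445 and 454 in wt proB, 26.6 to 95.5 in dHet proB and 20.8 to 470 in B-ALL. Markers of other cells were less complete. Summed FPKM of 9 myeloid markers was 516 and 486 in wt proB, 13.6 to 51.6 in dHet proB and 28.6 to 259 in B-ALL, and the plasmacytoid dendritic cell gene Siglech had 132 and 77.3 FPKM in wt proB and 0 in all dHet proB libraries. Summed T cell markers reached 99.0 to 331 in B-ALL against 45.9 to 62.6 in the proB libraries. Lck made up most of this sum (83.0 to 325 in B-ALL). Cd3d, Cd3e and Cd3g were low but higher in every B-ALL library than in every proB library. Their B-ALL means were 2.88, 3.53 and 3.77 FPKM, and their highest proB values 0.631, 0.671 and 0.831. Cd4 and Cd8a were lower in B-ALL than in wt proB (mean 0.778 against 5.14 and 0.62 against 1.54 FPKM). Red cell markers reached 7.78 to 501 against 0.713 to 30.9, with Hba-a1, Hbb-b1 and Cd3e at 0 in dHet proB. Stroma markers summed to 0.174 to 4.22 in every library, and plasmacytoid dendritic cell markers, among them Ly6d, to 276 to 2498. In bulk libraries such as these, fewer cells of a type and less RNA per cell cannot be told apart.

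Initiation factor genes were mostly abundant transcripts in all 3 groups. Of the 49 members, 44 in B-ALL, 41 in dHet proB and 42 in wt proB lay above the median of the genes with a group mean of 1 FPKM or more, and 22, 21 and 19 lay in the top decile. Eif5a, a factor that frees ribosomes stalled in elongation and at termination, had the highest level of the family in every library, at 1864 and 2024 in wt proB, 1138, 2162 and 1410.1 in dHet proB, and 3298 to 4523 in B-ALL with a median of 4089. The leukemic libraries were above all proB libraries, which overlapped among themselves. Next in the group means came Eif4a1, the main helicase of eIF4F, in B-ALL (729.6 ± 103 FPKM, SD over 3 mice), and Eif1, which guards start codon choice, in wt proB (577 ± 10.1, n = 2). In dHet proB the eIF3 subunit gene Eif3k was second (548 ± 61.7, n = 3) and its SD overlapped with that of Eif1 (522 ± 100.3). At the other end of the group means, the 4E-BP gene Eif4ebp3 and the eIF5A paralog Eif5a2 were at 1.26 to 5.84 FPKM in every library. The summed FPKM of the members made up 1.34 and 1.35% in the wt proB libraries, 1.18, 1.41 and 1.41% in the dHet proB libraries and 1.65 to 1.96% in the B-ALL libraries. Every B-ALL library lay above every proB library in that share, and the exact permutation test over 3 mice against 2 or 3 libraries gave p = 0.1 in both comparisons, two-sided, the smallest these designs allow. Without Eif5a the share was 1.14 ± 0.0601% in B-ALL, 1.05 ± 0.0807% in dHet proB and 0.982 ± 0.0349% in wt proB (mean and SD), and B-ALL no longer stood clear of dHet proB (exact permutation p = 0.3).

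Each member was then compared between the groups by limma on log2(FPKM + 1), with p-values adjusted over all 11110 genes tested. Against wt proB, 8 of the 48 members rose in B-ALL, 1 fell and 39 did not pass the threshold of 0.05. That is 16.7% of the members higher and 2.08% lower, beside 8.15% and 10.0% of all genes tested (18.2% in either direction). The members' median log2 change was 0.42, against -0.02 for all genes. Against dHet proB, 15 members rose in B-ALL, 1 fell and 32 did not pass, which is 31.2% and 2.08% beside 14.5% and 11% of all genes (25.5% in either direction). The median change was 0.29, and 0.04 for all genes. Between the proB groups 2 members rose in dHet proB and 1 fell, beside 2.18% and 6.50% of all genes (8.68% in either direction), with a median of 0.12 against -0.04. Every B-ALL library was above both wt proB libraries for 22 members (45.8%, beside 23.5% of all genes) and below them for 2 (4.17%, beside 24.7%). Against all dHet proB libraries it was 18 above (37.5%, beside 19.5%) and 2 below (4.17%, beside 15.5%). For dHet proB against wt proB, 9 members had all dHet proB libraries above both wt proB libraries and 3 had them below, and the share above was near that of all genes (18.9% above and 24.1% below). These comparisons share libraries with each other and are not independent.

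The counts depended on single units and on the scaling. Against wt proB they fell to 3 members without mouse 686 (with 9.60% of all genes called), to 4 without wt proB library 1 (2.54% of all genes) and to 1 without wt proB library 2 (1.80%), where the remaining library is assumed to vary like those of the other groups. Against dHet proB they fell to 4 without mouse 686 (12.7% of all genes), to 8 without mouse 760 (19.9%) and to 5 without dHet proB library 1 (12.6%). Between the proB groups the count was 1 without wt proB library 2 (1.06% of all genes). With FPKM rescaled to the same sum in every library (TPM), 5 members were higher and 2 lower in B-ALL than in wt proB, and 5 higher and 4 lower than in dHet proB. Of all genes, TPM gave 529 higher and 1695 lower against wt proB (905 and 1112 on the deposited scale) and 1124 and 1776 against dHet proB (1614 and 1218). Quantile normalization gave 5 members higher and 2 lower against wt proB, and 7 and 4 against dHet proB, with 899 and 1053, and 1318 and 1517, of all genes. The TPM rescaling moved the median of all genes to -0.22 and -0.12, and the members' medians lay 0.46 and 0.23 above it, as against 0.44 and 0.26 on the deposited scale. After quantile normalization they lay 0.23 and 0.19 above it.

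**Figure D1:**
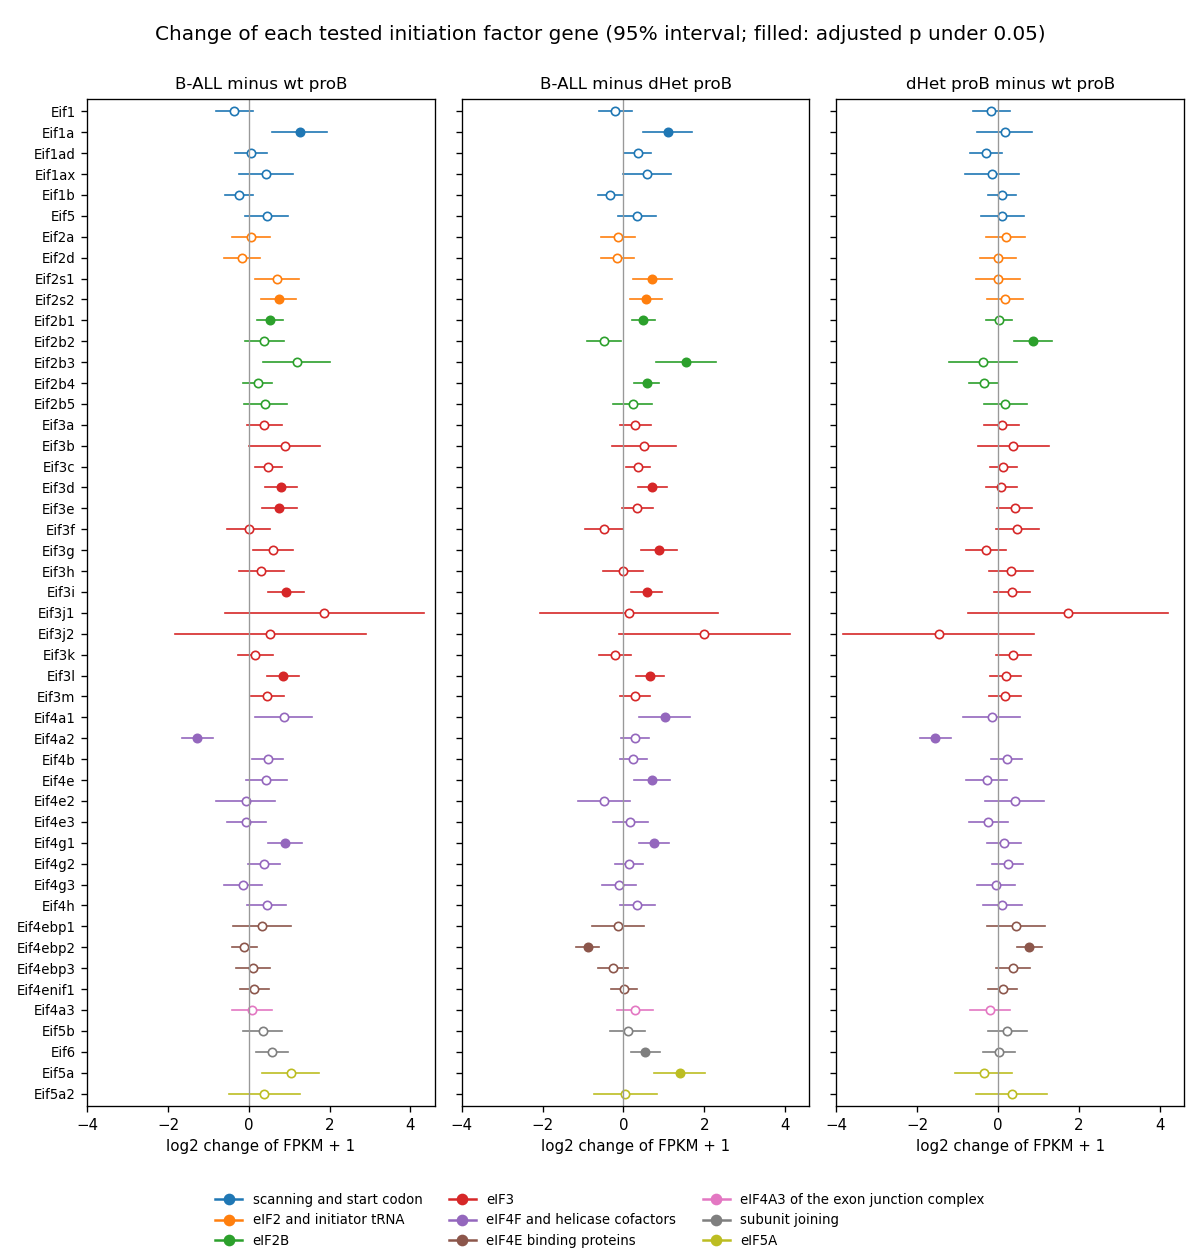
Change of each of the 48 tested initiation factor genes in the 3 comparisons, on the log2(FPKM + 1) scale, with bars for the 95% interval, colors for the complex and filled points for an adjusted p under 0.05. Most points lie right of 0 in the B-ALL panels (39 of 48 against wt proB and 35 against dHet proB; 33 and 30 with TPM), and Eif4a2 stands far to the left in both comparisons with wt proB.

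In the cap-binding complex, the helicase genes Eif4a1 and Eif4a2 and the scaffold gene Eif4g1 differed between the groups. Of its 10 tested genes, including the helicase cofactors, 1 rose and 1 fell in B-ALL against wt proB, 3 rose against dHet proB, and 1 fell in dHet proB against wt proB. That is 10% higher and 10% lower against wt proB, near the 8.15% and 10.0% of all genes tested. Against dHet proB it is 30% higher, beside 14.5%, and between the proB groups 10% lower, beside 6.50%. The median change was 0.40, 0.27 and 0.03 in the 3 comparisons. Eif4a1 and Eif4a2 encode closely related forms of the eIF4A helicase, which unwinds mRNA leaders. Eif4a2 had FPKM of 119 and 87.0 in wt proB, 32.7, 33.0 and 36.0 in dHet proB, and 34.6 to 53.1 in B-ALL with a median of 41.5. Both wt proB libraries were higher than all 9 others, and the B-ALL and dHet proB libraries overlapped. Against wt proB the log2 change of Eif4a2 was -1.28 (SE 0.167, adjusted p = 0.00241) in B-ALL and -1.56 (SE 0.167, adjusted p = 0.0012) in dHet proB, which leaves 0.413 and 0.340 of the wt proB level on that scale. Between B-ALL and dHet proB it did not pass, with a change of 0.28 (95% interval -0.063 to 0.62, adjusted p = 0.196). These 2 falls passed in all 24 other settings tried, at -1.50 to -1.05 and -1.78 to -1.33. The wt proB libraries are also those in which the summed myeloid markers were highest, and the part of other cells in the Eif4a2 level was not tested.

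Eif4a1 had FPKM of 489.8 and 323 in wt proB, 247, 413 and 443 in dHet proB, and 609.8 to 825 in B-ALL with a median of 761. All B-ALL libraries were above all proB libraries, and the proB groups overlapped. Its change was 1.02 (SE 0.273, adjusted p = 0.03) against dHet proB, which passed, and 0.86 (SE 0.305, adjusted p = 0.0853) against wt proB, which did not. Eif4a2 therefore made up a smaller part of the summed Eif4a1 and Eif4a2 FPKM in the leukemic cells, namely 19.5 and 21.2% in the wt proB libraries, 11.7, 7.40 and 7.50% in the dHet proB libraries and 4.51 to 6.23% in the B-ALL libraries. The 3 groups did not overlap in that share, and each exact permutation test gave p = 0.1, two-sided, the smallest possible. Of the 50-base words of Eif4a1 transcripts (GENCODE M21), 65.3% also occur in other genes, mainly the pseudogene Eif4a-ps4, as against 11.5% for Eif4a2, so reads of Eif4a1 could be split by the counting and its level is less certain.

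Eif4g1, the scaffold that joins the cap-binding protein, the helicase and eIF3, had 51.8 and 53.8 in wt proB, 47.2, 62.4 and 68.6 in dHet proB, and 81.6 to 125 in B-ALL. The leukemic libraries lay above all proB libraries, and the gene rose by 0.90 (SE 0.180, adjusted p = 0.0137) against wt proB and 0.75 (SE 0.161, adjusted p = 0.0147) against dHet proB. Its relatives did not pass in any comparison. Eif4g2, which lacks the site for eIF4E and serves cap-independent initiation, had 264 and 242 in wt proB, 285, 301 and 308 in dHet proB, and 276 to 409.7 in B-ALL with a median of 333, so that B-ALL stood above wt proB but overlapped with dHet proB. Eif4g3, a less abundant scaffold, had 13.6 and 14.3 in wt proB, 11.5, 12.8 and 16.7 in dHet proB, and 7.19 to 16.7 in B-ALL with a median of 13.4, with all groups overlapping. Its changes were -0.15 and -0.11 in B-ALL against wt proB and dHet proB.

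Among the cap-binding proteins, Eif4e, the one that recruits eIF4G to the cap, had 65.1 and 48.7 in wt proB, 36.4, 53.4 and 50.2 in dHet proB, and 67.3 to 90.1 in B-ALL with a median of 75.4. Leukemic values were above those of both proB groups. Eif4e rose by 0.72 (SE 0.194, adjusted p = 0.0315) against dHet proB, and against wt proB its change of 0.43 (SE 0.217, adjusted p = 0.195) did not pass. Eif4e2, a cap-binding protein that takes part in the repression of translation, had 57.0 and 60.4 from mouse 686, 50.9 and 52.9 from mouse 713, and 26.6 and 24.6 from mouse 760. In the proB groups it had 57.2, 62.5 and 61.8 (dHet proB) and 45.8 and 44.8 (wt proB), so that only mouse 760 lay below all other libraries. Eif4e3, a less studied cap-binding relative, had 31.0 and 34.1 in wt proB, 28.2, 31.9 and 23.0 in dHet proB, and 24.6 to 38.5 in B-ALL with a median of 30.2. Its groups overlapped, and it did not pass in any comparison. The cofactors Eif4b and Eif4h, which stimulate the helicase, did not pass either, at 0.47 and 0.45 against wt proB. Several of these calls were lost in other settings. Eif4g1 failed against wt proB with the mouse as a random effect or without wt proB library 1 or wt proB library 2 (adjusted p = 0.0814 to 0.123) and against dHet proB after rescaling to TPM, with the mouse as a random effect, with the replicate number as a block or without mouse 686 (adjusted p = 0.0527 to 0.0898). Against dHet proB, Eif4a1 failed without the filter on low values, after rescaling to TPM, after quantile normalization or without mouse 686, mouse 760 or dHet proB library 1 (adjusted p = 0.056 to 0.1). Eif4e failed in the same 6 settings (adjusted p = 0.0518 to 0.108).

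**Figure D2:**
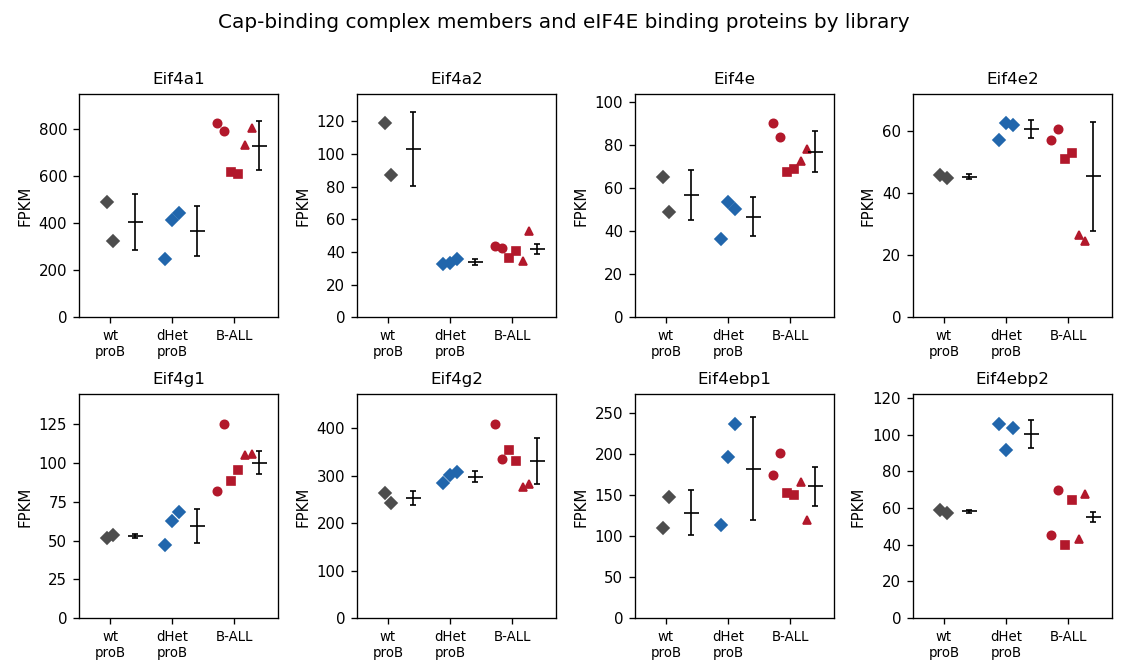
FPKM of 8 genes of the cap-binding complex and its binding proteins in each library, with gray for wt proB, blue for dHet proB and red for B-ALL (circles, mouse 686; squares, mouse 713; triangles, mouse 760). Bars are mean ± SD over 2 wt proB libraries, 3 dHet proB libraries and 3 B-ALL mice. Eif4a2 is high in the wt proB libraries, Eif4a1 and Eif4g1 are higher in all B-ALL libraries, and Eif4e2 is low in mouse 760.

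Promoter sequences are shown to set the helicase paralogs Eif4a1 and Eif4a2, and genes higher in B-ALL with and without a hexamer match, side by side. The promoters were searched for the hexamer CACGTG, an E-box that MYC, MAX and other basic helix-loop-helix factors are known to bind. The RefSeq promoter table (assembly GRCm38.p6, 250 bases before to 50 after each start; the expression files use the older build mm9) holds 37 of the 49 members. CACGTG reads the same on both strands. It occurred in a promoter of 10 of these 37 genes (27.0%), beside 12.1% of the 8497 tested genes with a promoter in the table. Per promoter it was 12 of 49 (24.5%), beside 7.15% of all 32851, which include promoters of genes not tested here. The 3 listed starts of Eif5a count separately in the 12, and those with matches at -74 and -185 hold the same site in overlapping windows. Of the 16 members that rose in B-ALL in either comparison 11 were in the table, and 4 of these 11 (Eif4a1, Eif4e, Eif4g1 and Eif5a) had a match. The other 7 (Eif2b1, Eif2b4, Eif2s1, Eif2s2, Eif3d, Eif3g and Eif3l) had none. All 4 with a match are shown, and of the 7 without one the pair with the largest change against dHet proB, Eif3g and Eif3d. The sequences below run 5′ to 3′ on the strand of the gene, in lower case with CACGTG in capitals. They end 11 bases before the start for Eif4a1, Eif4g1, Eif5a, Eif3g and Eif3d and 31 bases before it for Eif4a2, and for Eif4e only a 30-base window around each match is shown.
Eif4a1 (chr11:69672434-69672673, minus strand): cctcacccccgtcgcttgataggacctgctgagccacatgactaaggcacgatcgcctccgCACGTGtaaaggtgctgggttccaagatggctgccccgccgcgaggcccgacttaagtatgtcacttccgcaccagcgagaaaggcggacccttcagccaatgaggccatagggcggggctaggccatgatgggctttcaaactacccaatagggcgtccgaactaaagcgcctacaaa
Eif4a2 (chr16:23107218-23107437, plus strand): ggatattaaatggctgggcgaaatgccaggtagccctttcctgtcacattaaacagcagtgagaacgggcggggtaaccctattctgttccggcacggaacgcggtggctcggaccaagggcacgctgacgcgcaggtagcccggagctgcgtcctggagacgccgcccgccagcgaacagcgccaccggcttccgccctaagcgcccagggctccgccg
Eif4g1 (chr16:20672477-20672716, plus strand): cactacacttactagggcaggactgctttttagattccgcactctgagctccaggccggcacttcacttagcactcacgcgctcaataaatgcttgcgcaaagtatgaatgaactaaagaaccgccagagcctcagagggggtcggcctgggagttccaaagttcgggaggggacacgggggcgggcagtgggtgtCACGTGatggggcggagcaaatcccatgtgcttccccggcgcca
Eif5a (chr11:69921397-69921636, minus strand): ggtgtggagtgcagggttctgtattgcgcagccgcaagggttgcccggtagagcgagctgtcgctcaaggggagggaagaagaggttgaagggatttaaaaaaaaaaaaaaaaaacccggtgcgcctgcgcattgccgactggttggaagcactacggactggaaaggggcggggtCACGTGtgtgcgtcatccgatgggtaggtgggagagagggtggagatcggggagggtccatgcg
Eif4e (chr3:138527028-138527057, plus strand): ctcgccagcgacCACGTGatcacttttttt
Eif4e (chr3:138527192-138527221, plus strand): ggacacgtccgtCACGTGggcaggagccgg
Eif3g (chr9:20898601-20898840, minus strand): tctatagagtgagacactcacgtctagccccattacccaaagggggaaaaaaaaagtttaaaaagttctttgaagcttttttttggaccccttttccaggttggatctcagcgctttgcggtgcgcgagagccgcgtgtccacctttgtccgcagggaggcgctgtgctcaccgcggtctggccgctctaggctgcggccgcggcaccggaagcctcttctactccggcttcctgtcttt
Eif3d (chr15:77970835-77971074, minus strand): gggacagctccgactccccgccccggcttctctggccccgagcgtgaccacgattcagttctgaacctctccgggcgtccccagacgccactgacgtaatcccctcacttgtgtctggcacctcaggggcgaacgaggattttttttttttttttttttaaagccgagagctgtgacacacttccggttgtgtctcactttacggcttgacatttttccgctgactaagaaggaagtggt
Counted back from the start (the base before it is -1), the match began at -189 in Eif4a1, at -74 for the most upstream of the 3 listed starts of Eif5a, and at -228 and -64 in Eif4e. In Eif4g1 it began at -54, and a second match lay after the start. The listed promoters of Eif4a2, Eif3g and Eif3d held none. Matches also lay in the promoters of Eif1b, Eif3a, Eif3f, Eif3k, Eif4h and Eif5a2, none of which passed in any comparison of the groups. A match describes only the letters in this window.

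The eIF4E binding proteins (4E-BPs) keep eIF4E from eIF4G until mTORC1 phosphorylates them. Of the 4 genes in this group 0 passed between B-ALL and wt proB by limma (0 also at an unadjusted p under 0.05), 1 fell in B-ALL against dHet proB, and 1 rose in dHet proB against wt proB. The fall is 25% of the group, beside 11% of all genes. The rise is also 25%, beside 2.18% of all genes. Both calls were Eif4ebp2. The dHet proB libraries had 106, 91.8 and 103 and the wt proB libraries 58.7 and 57.6. The leukemic libraries had 45.5 and 70.0 from mouse 686, 40.0 and 64.6 from mouse 713, and 43.3 and 67.4 from mouse 760. The cultured dHet proB cells stood above all other libraries, and the first library of each leukemic mouse was lower than the second. The log2 change of Eif4ebp2 was -0.89 (SE 0.120, adjusted p = 0.00303) in B-ALL against dHet proB and 0.78 (SE 0.134, adjusted p = 0.00985) in dHet proB against wt proB. With the libraries entered singly and the mouse as a random effect, both calls were lost (adjusted p = 0.203 for the former). The latter also failed with the replicate number as a block and without wt proB library 1 or 2, and its lost calls had adjusted p = 0.14 to 0.507. The former passed with only library 1 and with only library 2 of each mouse.

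Eif4ebp1, the most abundant of the 3 Eif4ebp genes in every library, had 109.7 and 148 in wt proB, 114, 197 and 237 in dHet proB, and 120.1 to 202 in B-ALL with a median of 159. Its groups overlapped, and it did not pass (0.32, -0.13 and 0.45 in the 3 comparisons). Eif4ebp3 was low, at 2.39 and 2.18 in wt proB, 3.22, 3.49 and 3.04 in dHet proB, and 1.90 to 3.57 in B-ALL with a median of 2.59, and 65.5% of its 50-base words are shared with another gene model. Eif4enif1, which carries eIF4E into the nucleus and to processing bodies, had 13.9 and 15.2 in wt proB, 16.4, 14.5 and 16.5 in dHet proB, and 13.7 to 17.7 in B-ALL with a median of 16.3, with all groups overlapping. The summed FPKM of the 3 Eif4ebp genes over that of Eif4e was 2.62 and 4.27 in the wt proB libraries, 6.12, 5.47 and 6.85 in the dHet proB libraries and 2.43 to 3.28 in the B-ALL libraries. All dHet proB libraries were above all others in this ratio, whereas B-ALL and wt proB overlapped, and the exact permutation p was 0.1 for dHet proB against either group, the smallest possible, and 0.5 for B-ALL against wt proB. The ratio compares transcripts and says nothing of phosphorylation.

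**Figure D3:**
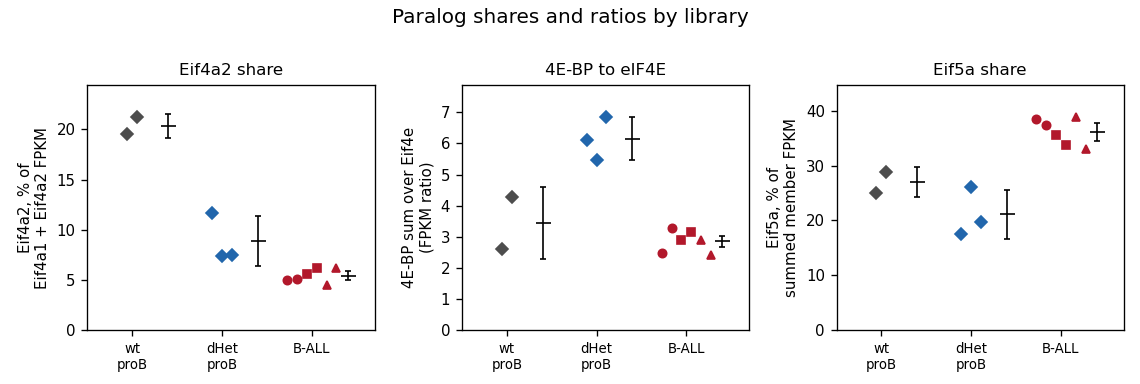
Share of Eif4a2 in the summed Eif4a1 and Eif4a2 FPKM (%), ratio of summed Eif4ebp1, Eif4ebp2 and Eif4ebp3 FPKM to Eif4e, and share of Eif5a in the summed FPKM of all members (%), per library with mean ± SD over 2 wt proB libraries, 3 dHet proB libraries and 3 B-ALL mice; colors and symbols separate groups and mice. The mean Eif4a2 share is 20.4% in wt proB, 8.87% in dHet proB and 5.44% in B-ALL, the binding protein ratio is highest in dHet proB, and the Eif5a share is highest in B-ALL.

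Both autosomal subunit genes of eIF2, the carrier of the initiator tRNA, had their highest levels in the leukemic cells. Of 4 genes placed with eIF2, 1 rose against wt proB and 2 against dHet proB, and 0 passed between the proB groups (0 also at an unadjusted p under 0.05). The rises are 25% and 50% of these genes, beside 8.15% and 14.5% of all genes. Eif2s1, the alpha subunit that stress kinases phosphorylate, had 81.8 and 78.6 in wt proB, 57.2, 93.3 and 96.1 in dHet proB, and 118 to 152 in B-ALL with a median of 130.1. Eif2s2, the beta subunit, had 113 and 115 in wt proB, 109, 149 and 130.0 in dHet proB, and 164 to 237 in B-ALL with a median of 181. For both genes every B-ALL library was above every proB library. Eif2s2 rose by 0.74 (SE 0.190, adjusted p = 0.0331) against wt proB and 0.57 (SE 0.170, adjusted p = 0.044) against dHet proB. Eif2s1 rose by 0.71 (SE 0.211, adjusted p = 0.0425) against dHet proB, and against wt proB its change of 0.71 (SE 0.235, adjusted p = 0.0715) did not pass. Eif2a and Eif2d, which can bring initiator or other tRNAs to the ribosome without eIF2, had changes of 0.052 and -0.16 against wt proB and overlapped between all groups. These eIF2 calls depended on the setting. Eif2s2 failed against wt proB after rescaling to TPM, after quantile normalization or without mouse 686, mouse 760, wt proB library 1 or wt proB library 2 (adjusted p = 0.051 to 0.194). Against dHet proB, Eif2s1 failed in 12 and Eif2s2 in 15 of 24 other settings (adjusted p = 0.0502 to 0.134 for Eif2s1 and 0.0501 to 0.145 for Eif2s2), among them without mouse 686, mouse 760, mouse 760 library 1, dHet proB library 1 or either wt proB library for both, without mouse 713 for Eif2s1, and without mouse 713 library 1 or dHet proB library 3 for Eif2s2. Of the words of Eif2s2, 27.8% are shared with the gene model Gm9892.

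The subunit genes of eIF2B, the exchange factor that recharges eIF2 with GTP, differed in the groups in which they were highest. Against wt proB 1 of 5 rose, against dHet proB 3 rose, and in dHet proB against wt proB 1 rose. That is 20%, 60% and 20%, beside 8.15%, 14.5% and 2.18% of all genes. Eif2b3, the gamma subunit of the catalytic core, had 17.9 and 20.8 in wt proB, 8.13, 16.9 and 22.7 in dHet proB, and 38.8 to 54.3 in B-ALL with a median of 44.8. The leukemic values were above all proB values, and its change against dHet proB was the largest of the called members in that comparison, at 1.55 (SE 0.324, adjusted p = 0.0131), a fold of 2.93. It passed in all 24 other settings, at 1.16 to 1.85. Against wt proB the change of 1.18 (SE 0.363, adjusted p = 0.0571) did not pass, though it did in 5 of 24 other settings. Eif2b4, the delta subunit, had 41.8 and 42.3 in wt proB, 29.6, 33.2 and 35.0 in dHet proB, and 41.9 to 58.7 in B-ALL with a median of 49.5. B-ALL was above dHet proB, by 0.58 (SE 0.137, adjusted p = 0.0208), but overlapped with wt proB. Eif2b1, the alpha subunit of the regulatory part, had 35.5 and 35.5 in wt proB, 34.8, 37.5 and 36.1 in dHet proB, and 46.0 to 58.5 in B-ALL with a median of 49.9. It was higher in B-ALL than in every proB library, by 0.51 (SE 0.140, adjusted p = 0.0396) against wt proB and 0.49 (SE 0.125, adjusted p = 0.026) against dHet proB.

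Eif2b2, the beta subunit, had a different order, with 72.1 and 56.6 in wt proB, 124, 103 and 127 in dHet proB, and 70.6 to 106 in B-ALL with a median of 78.2. The dHet proB libraries were above both wt proB libraries, a rise of 0.87 (SE 0.205, adjusted p = 0.0377), and overlapped with B-ALL through mouse 713, the highest of the leukemias. The change of -0.48, SE 0.183, adjusted p = 0.0897 in B-ALL against dHet proB did not pass, except after rescaling to TPM, after quantile normalization or without mouse 713 (adjusted p = 0.0326 to 0.0388). Eif2b5, the catalytic epsilon subunit, had 47.0 and 167 from mouse 686, 94.7 and 129 from mouse 713, and 157 and 129 from mouse 760. In the proB groups it had 80.1, 107 and 101 (dHet proB) and 75.5 and 94.1 (wt proB). The groups overlapped, with library 1 of mouse 686 the lowest of all, and the changes of 0.40 against wt proB and 0.23 against dHet proB did not pass. Eif2b5 passed against wt proB with only library 2 of each mouse. Some of the eIF2B calls were lost in other settings. Eif2b4 failed after rescaling to TPM or without mouse 686, mouse 760 or dHet proB library 1 (adjusted p = 0.0628 to 0.103). Eif2b2 failed with the replicate number as a block or without mouse 686, dHet proB library 1, dHet proB library 3, wt proB library 1 or wt proB library 2 (adjusted p = 0.0548 to 0.337). Eif2b1 failed in 10 of 24 settings against wt proB (adjusted p = 0.051 to 0.227), among them without mouse 686, mouse 760, mouse 760 library 1, dHet proB library 1 or either wt proB library, and in 8 against dHet proB (adjusted p = 0.0504 to 0.123), among them without mouse 686, dHet proB library 1 or either wt proB library.

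**Figure D4:**
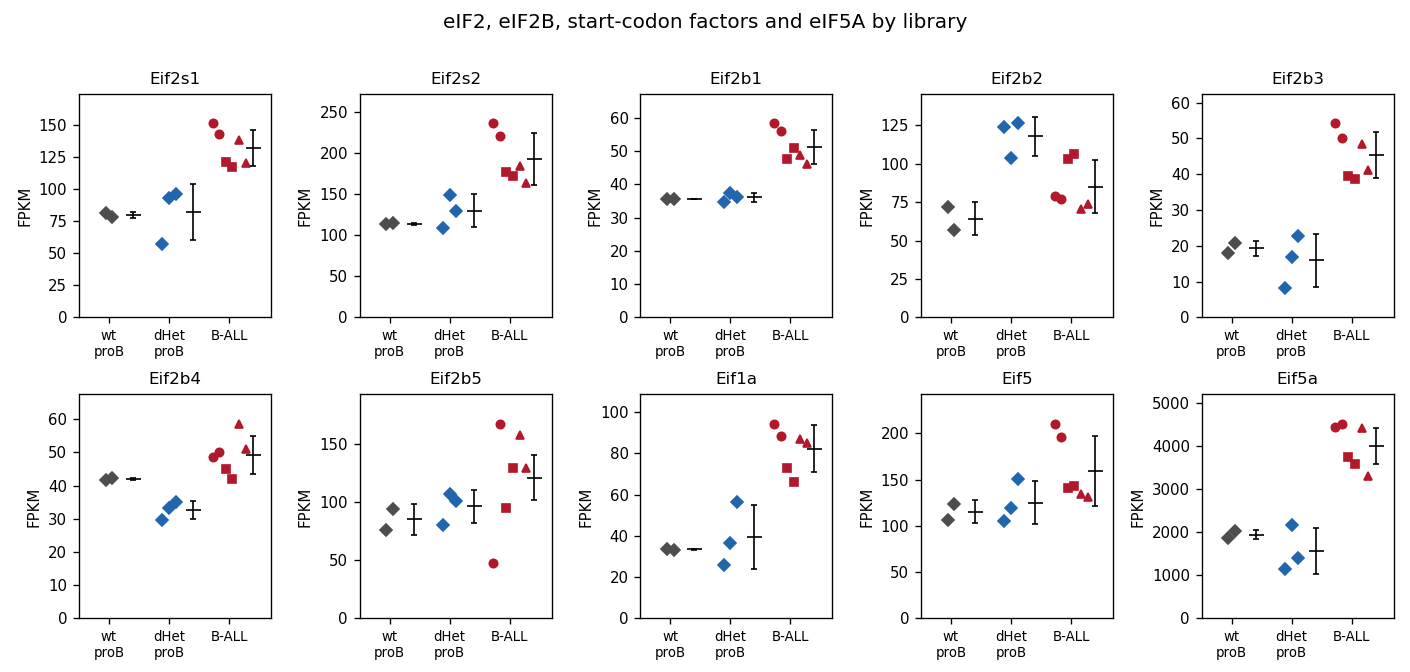
FPKM of 10 genes of eIF2, eIF2B, start codon selection and eIF5A in each library, with gray for wt proB, blue for dHet proB and red for B-ALL (circles, mouse 686; squares, mouse 713; triangles, mouse 760). Bars are mean ± SD over 2 wt proB libraries, 3 dHet proB libraries and 3 B-ALL mice. Eif2b3, Eif1a and Eif5a are higher in all B-ALL libraries, Eif2b2 is high in dHet proB, and one library of mouse 686 is low for Eif2b5.

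Of the 6 genes of scanning and start codon choice, 1 rose in B-ALL against each proB group and 0 passed between the proB groups (0 also at an unadjusted p under 0.05). The rise is 16.7% of these genes, beside 8.15% of all genes against wt proB and a similar 14.5% against dHet proB. The gene that rose was Eif1a, which encodes eIF1A, a factor that keeps the scanning ribosome open. Eif1a had 33.7 and 33.3 in wt proB, 25.7, 36.6 and 56.4 in dHet proB, and 66.4 to 94.5 in B-ALL with a median of 85.9. All leukemic libraries were above all proB libraries, by 1.26 (SE 0.295, adjusted p = 0.0242) against wt proB, the largest rise of the family among called members there, and 1.10 (SE 0.264, adjusted p = 0.0213) against dHet proB. Its X-linked paralog Eif1ax, which encodes almost the same protein, had 190.0 and 179 in wt proB, 140.2, 256 and 127 in dHet proB, and 219.9 to 279 in B-ALL with a median of 250.2. B-ALL overlapped with dHet proB through dHet proB library 2, and the changes of 0.43 (95% interval -0.23 to 1.10, adjusted p = 0.324) against wt proB and 0.58 (95% interval -0.013 to 1.18, adjusted p = 0.131) against dHet proB did not pass. Without dHet proB library 2 the latter passed (adjusted p = 0.00879). Of the summed Eif1a and Eif1ax FPKM, Eif1a made up 15.1 and 15.7% in the wt proB libraries, 15.5, 12.5 and 30.8% in the dHet proB libraries and 23.2 to 26.8% in the B-ALL libraries. B-ALL was above wt proB in that share but overlapped with the widely spread dHet proB (exact permutation p = 0.1, the smallest possible, and 0.4).

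Eif1, the abundant gatekeeper of start codon choice, had 585 and 570.2 in wt proB, 533, 616 and 417 in dHet proB, and 427 to 483 in B-ALL with a median of 451. It was below wt proB in every B-ALL library but did not pass (-0.36, SE 0.196, adjusted p = 0.23), except after rescaling to TPM or quantile normalization. Of the 50-base words of Eif1, 31.6% also occur in other genes. Eif1b, its paralog, had 88.6 and 72.9 in wt proB, 89.9, 89.6 and 77.8 in dHet proB, and 56.9 to 78.6 in B-ALL with a median of 67.3. Its groups overlapped, though after rescaling to TPM or quantile normalization it passed as lower in B-ALL than in dHet proB. Eif5, the activator of GTP hydrolysis by eIF2, had 211 and 196 from mouse 686, 141 and 143 from mouse 713, and 135 and 131 from mouse 760. In the proB groups it had 106, 119 and 151 (dHet proB) and 107 and 124 (wt proB). All leukemic libraries were above wt proB, mouse 686 most of all, but the changes of 0.44 against wt proB and 0.34 against dHet proB did not pass. Eif1ad, a gene named for its eIF1A domain, had changes of 0.054 and 0.35 in B-ALL against wt proB and dHet proB and did not pass. The Eif1a call against wt proB failed after rescaling to TPM or without mouse 686, mouse 760, wt proB library 1 or wt proB library 2 (adjusted p = 0.0556 to 0.169), and against dHet proB after rescaling to TPM or without mouse 686, mouse 760 or dHet proB library 1 (adjusted p = 0.0527 to 0.0745).

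Part of the genes of eIF3, the largest initiation complex, rose in leukemic cells. Of 14 genes tested, 4 rose in B-ALL against wt proB (Eif3d, Eif3e, Eif3i and Eif3l), 4 rose against dHet proB (Eif3d, Eif3g, Eif3i and Eif3l), and 0 passed between the proB groups (0 also at an unadjusted p under 0.05). The rises are 28.6% in each comparison of B-ALL, beside 8.15% and 14.5% of all genes. The median changes of the 14 genes were 0.57, 0.35 and 0.25. Eif3i, a beta-propeller subunit, had 119 and 81.6 in wt proB, 141, 123 and 115 in dHet proB, and 177 to 199 in B-ALL with a median of 188. Eif3l, a subunit of the octamer of PCI and MPN domain proteins that forms the body of eIF3, had 125 and 107 in wt proB, 130.2, 151 and 117 in dHet proB, and 185 to 233 in B-ALL with a median of 211. For both, B-ALL was above all proB libraries. Eif3i rose by 0.92 (SE 0.189, adjusted p = 0.0149) against wt proB and 0.58 (SE 0.169, adjusted p = 0.0413) against dHet proB. Eif3l rose by 0.85 (SE 0.169, adjusted p = 0.0133) and 0.67 (SE 0.152, adjusted p = 0.0177) in the same order. Eif3d, a subunit that can itself bind the cap of some mRNAs, had 88.0 and 61.6 in wt proB, 76.8, 80.1 and 77.8 in dHet proB, and 122 to 140.0 in B-ALL with a median of 128. Its B-ALL values were all above its proB values, and it rose by 0.81 (SE 0.171, adjusted p = 0.0169) against wt proB and 0.72 (SE 0.153, adjusted p = 0.0139) against dHet proB. Eif3g, which binds RNA during scanning, had 208 and 190.4 in wt proB, 129, 168 and 197 in dHet proB, and 249.8 to 356 in B-ALL with a median of 310.0. B-ALL was above both proB groups, and Eif3g rose by 0.89 (SE 0.192, adjusted p = 0.0149) against dHet proB, whereas its change of 0.59 (SE 0.215, adjusted p = 0.0906) against wt proB did not pass. Eif3e, another subunit of the octamer, rose by 0.76 (SE 0.186, adjusted p = 0.0281) against wt proB.

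The largest subunit, Eif3a, which serves as the scaffold of the complex, had 54.0 and 50.4 in wt proB, 50.9, 55.4 and 61.1 in dHet proB, and 53.5 to 91.1 in B-ALL with a median of 66.0. Its groups overlapped and it did not pass, with changes of 0.38 against wt proB and 0.29 against dHet proB. Eif3f, also of the octamer, had 227 and 143 in wt proB, 276, 216 and 270.1 in dHet proB, and 153 to 214 in B-ALL with a median of 181. All B-ALL libraries lay below all dHet proB libraries, and the change of -0.49 (SE 0.204, adjusted p = 0.116) did not pass except after rescaling to TPM. Eif3h, Eif3k and Eif3m, further members of the octamer, had changes of 0.31, 0.16 and 0.46 in B-ALL against wt proB and -0.013, -0.21 and 0.29 against dHet proB, and did not pass. Of the 50-base words of Eif3h and Eif3m, 26.2% and 37.3% also occur in other genes. Eif3c, which binds eIF1 and eIF5, was in every B-ALL library above every proB library without passing, at 0.48 (SE 0.143, adjusted p = 0.0523) against wt proB and 0.35 (SE 0.128, adjusted p = 0.077) against dHet proB. The loosely bound subunit eIF3j is encoded by the near-identical genes Eif3j1 and Eif3j2. Of the words of Eif3j2, 91.9% are shared, mainly with Eif3j1, and their listed levels were unequal in different ways between libraries, as in wt proB libraries 1 and 2, where Eif3j1 had 20.7 and 0.0445 and Eif3j2 had 5.65 and 22.5. The summed FPKM of the pair was 26.4 and 22.5 in the wt proB libraries, 14.6, 19.8 and 30.3 in the dHet proB libraries and 36.2 to 42.6 in the B-ALL libraries. B-ALL was above the proB groups in that sum (exact permutation p = 0.1 in both comparisons, the smallest possible). In other settings Eif3d failed against wt proB without mouse 686 or wt proB library 2 (adjusted p = 0.0509 to 0.172) and against dHet proB without dHet proB library 1 (adjusted p = 0.0512). Eif3i failed against wt proB without mouse 686 or wt proB library 2 (adjusted p = 0.0521 to 0.155), and against dHet proB in 11 of 24 (adjusted p = 0.0502 to 0.157), among them without any 1 mouse or any 1 dHet proB library. Eif3l failed against wt proB without wt proB library 1 or wt proB library 2 (adjusted p = 0.0706 to 0.151) and against dHet proB without mouse 686 or dHet proB library 1 (adjusted p = 0.0613 to 0.062). Eif3e failed after quantile normalization or without mouse 686, wt proB library 1 or wt proB library 2 (adjusted p = 0.0609 to 0.234), and Eif3g failed after quantile normalization or without mouse 686 (adjusted p = 0.053 to 0.0588).

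Eif5a, whose protein carries the modified lysine hypusine, rose by 1.39 (SE 0.273, adjusted p = 0.0106) in B-ALL against dHet proB, a fold of 2.62. It was higher in all B-ALL libraries than in any proB library, but against wt proB its change of 1.03 (SE 0.305, adjusted p = 0.0514) did not pass. It passed there in 7 of 24 other settings, and the call against dHet proB failed without the filter on low values (adjusted p = 0.0721). Of the summed FPKM of all members, Eif5a made up 25.1 and 28.9% in the wt proB libraries, 17.5, 26.1 and 19.7% in the dHet proB libraries and 32.9 to 38.8% in the B-ALL libraries. Every leukemic library was above every proB library in this share (exact permutation p = 0.1 in both comparisons, the smallest possible). Eif5a2, the paralog normally restricted to few tissues, had 5.84 and 4.38 from mouse 686, 1.36 and 1.26 from mouse 713, and 3.48 and 2.98 from mouse 760. The dHet proB libraries had 2.17, 3.48 and 2.79 and the wt proB libraries 1.88 and 2.09, and mouse 713 was below all others.

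Of the 2 factors of subunit joining, 1 rose in B-ALL against dHet proB (50%, beside 14.5% of all genes) and 0 passed against wt proB (1 at an unadjusted p under 0.05). Eif6, which keeps the large ribosomal subunit from joining early, had 185 and 225 in wt proB, 183, 243 and 199.8 in dHet proB, and 247 to 358 in B-ALL with a median of 309. All B-ALL libraries were above all proB libraries. Its change was 0.55 (SE 0.156, adjusted p = 0.0375) against dHet proB and 0.57 (SE 0.174, adjusted p = 0.0565) against wt proB, where it did not pass. The former call failed in 15 of 24 other settings (adjusted p = 0.0511 to 0.271), among them without any 1 mouse, mouse 760 library 1, dHet proB library 1 or 3, or either wt proB library. Eif5b, the GTPase that joins the subunits, had 18.4 and 18.4 in wt proB, 18.4, 20.4 and 27.5 in dHet proB, and 19.0 to 28.8 in B-ALL with a median of 23.4. B-ALL was above wt proB and overlapped with dHet proB, and its changes of 0.34 and 0.11 did not pass. Eif4a3, a helicase of the exon junction complex that shares the family name but is no initiation factor in the strict sense, overlapped between all groups. Its change of 0.088, 95% interval -0.41 to 0.59, adjusted p = 0.8, against wt proB did not pass and turned to -0.11 with TPM and -0.13 with quantile normalization.

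Few members were called as different between the 3 leukemias. In the limma F test between mice, which measures mice against the spread between libraries of a mouse and not between animals, 2 of 48 members (4.17%) passed, beside 22.3% of 11293 genes tested. They were Eif4e2, low in mouse 760 (adjusted p = 0.000132, range of mouse means 1.17 on the log2 scale), and Eif5a2, low in mouse 713 (adjusted p = 0.00189, range 1.39). Both were also called with the replicate number of the library as a block, where 4 members passed beside 27.6% of all genes, the others being Eif5 (adjusted p = 0.0195) and Eif4e3 (adjusted p = 0.0438). Without library 2 of mouse 686 the count was 4, beside 19.3% of all genes. Eif3j2 and Eif3b had ranges of mouse means of 1.42 and 1.14 without passing, and their libraries differed widely within a mouse.

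For a few members the libraries of a mouse differed by 2-fold or more. Eif3b, an eIF3 core subunit, had 44.6 and 497 from mouse 686, 201 and 379 from mouse 713, and 328 and 335 from mouse 760. Library 1 of mouse 686 was far below its partner. The dHet proB libraries had 112, 213 and 200.2 and the wt proB libraries 120.4 and 138, and Eif3b did not pass in B-ALL against wt proB (0.89, 95% interval 0.004 to 1.77, adjusted p = 0.141) or dHet proB (0.50, 95% interval -0.29 to 1.29, adjusted p = 0.309). It passed in both with only library 2 of each mouse and without library 1 of mouse 686. Members lower by 1 or more on the log2 scale in library 1 were Eif2b5, Eif3b and Eif3j1 in mouse 686 (3 of 48, beside 3.74% of all genes), Eif3j2 in mouse 713 (1, beside 1.62%) and 0 in mouse 760 (0.270%). In the other direction there were 0, 0 and 1 (Eif3j1), beside 0.189%, 0.162% and 0.0900%. Eif4ebp2 was the 1 member lower in library 1 by 0.4 or more in every mouse, at -0.610, -0.677 and -0.625, as were 1.29% of all genes. The labels used here do not say how the libraries of a mouse differ.

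**Figure D5:**
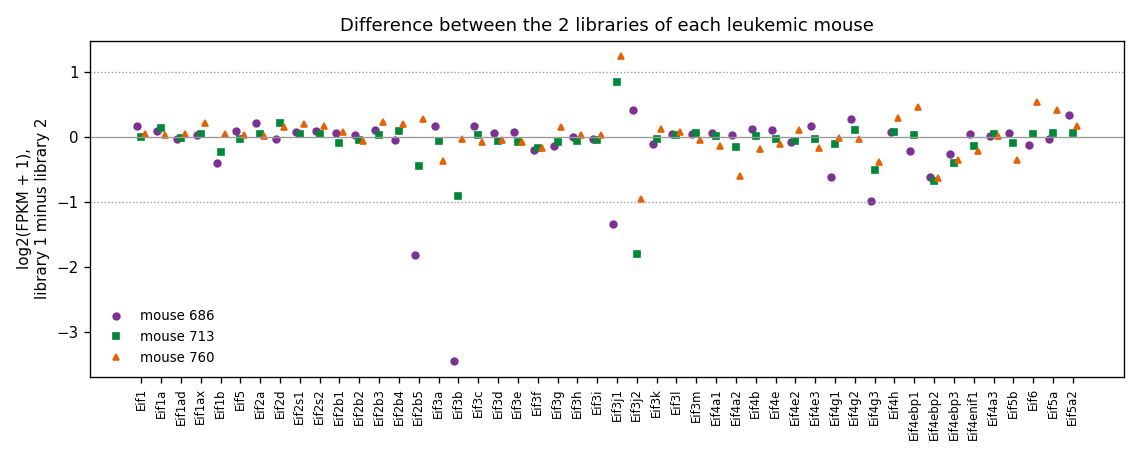
Difference between library 1 and library 2 of each leukemic mouse for the 48 tested members, on the log2(FPKM + 1) scale; symbols and colors separate the mice and dotted lines mark a difference of 1. Most points lie near 0, while Eif3b and Eif2b5 of mouse 686 and the Eif3j genes lie past the lines, and Eif4ebp2 lies near -0.6 in all mice.

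Other genes of the pathway were read from 5 lists with 48 genes, of which 47 were tested. In B-ALL 10 rose and 2 fell against wt proB, 7 rose and 3 fell against dHet proB, and in dHet proB 2 rose and 2 fell against wt proB. The rises in B-ALL are 21.3% against wt proB, beside 8.15% of all genes, and 14.9% against dHet proB, near the 14.5% of all genes. The falls in B-ALL are 4.3% and 6.38%, beside 10.0% and 11%. In dHet proB the rises and the falls are 4.3% each, beside 2.18% and 6.50%. The medians were 0.32, 0.20 and 0.16, beside -0.02, 0.04 and -0.04 for all genes. Elongation and termination factors had 5 rises (45.5%, beside 8.15% of all genes) and no fall among 11 tested against wt proB, with a median of 0.79. Eef1b2 and Eef1g, subunits of the exchange factor for eEF1A, rose by 1.10 (SE 0.164, adjusted p = 0.00421) and 1.09 (SE 0.232, adjusted p = 0.0172). Eef1b2 also rose in dHet proB against wt proB (0.72, SE 0.164, adjusted p = 0.0336), as the 1 gene of its list (9.09%, beside 2.18% of all genes). Against dHet proB 3 rose (27.3%, beside 14.5% of all genes) and 1 fell (9.09%, beside 11%). The exchange factor subunit Eef1d was at 1.28 (SE 0.180, adjusted p = 0.00352) and the eEF2 kinase gene Eef2k at -1.28 (SE 0.171, adjusted p = 0.00289). Dohh, which completes the hypusine of eIF5A, had 59.2 and 53.0 in wt proB, 51.3, 57.6 and 57.4 in dHet proB and 90.0 to 119 in B-ALL. All leukemic libraries were above all proB libraries, by 0.91 (SE 0.140, adjusted p = 0.00484) and 0.93 (SE 0.125, adjusted p = 0.00303); Dohh is named beyond the rule for pathway genes, after its values were seen.

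Among the 7 genes of the eIF2alpha kinases and their phosphatase, 1 fell in B-ALL and 2 in dHet proB against wt proB, and 0 passed between B-ALL and dHet proB (1 higher at an unadjusted p under 0.05). The falls are 14.3% and 28.6% of the list, beside 10.0% and 6.50% of all genes. Ppp1r15a, the stress-induced subunit that directs a phosphatase to eIF2alpha, had 136 and 157 in wt proB, 15.8, 10.3 and 14.1 in dHet proB and 10.1 to 12.5 in B-ALL. The wt proB libraries were far above all others, with a log2 change of -3.61 (SE 0.201, adjusted p = 8.59e-05) in B-ALL and -3.37 (SE 0.201, adjusted p = 9.22e-05) in dHet proB. Ppp1r15b, its constitutive counterpart, fell in dHet proB against wt proB (-0.85, SE 0.188, adjusted p = 0.0301). Of 14 genes of mTORC1 and the eIF4E kinases, 2 rose and 1 fell in B-ALL against wt proB, 1 fell against dHet proB, and 1 rose in dHet proB against wt proB. Against wt proB that is 14.3% higher and 7.14% lower, beside 8.15% and 10.0% of all genes. Against dHet proB it is 0% higher and 7.14% lower, beside 14.5% and 11%. Neither fall exceeds the share of all genes. The rise in dHet proB is 7.14%, beside 2.18%. The ribosomal protein gene Rps6 rose in B-ALL against wt proB (0.81, SE 0.208, adjusted p = 0.0325), as did the eIF4E kinase gene Mknk2 (log2 change 0.80), which was also higher in dHet proB than in wt proB (1.34, SE 0.208, adjusted p = 0.00586). Rps6kb2, an S6 kinase, fell against wt proB (-0.65, SE 0.143, adjusted p = 0.0187), and the mTORC1 inhibitor gene Tsc1 fell against dHet proB (-0.60, SE 0.157, adjusted p = 0.0282). Of 5 genes of the poly(A) binding group, 1 rose in each comparison of B-ALL (20%). Of all genes 8.15% rose against wt proB and 14.5% against dHet proB. Pabpc1, the main poly(A) binding protein and a partner of eIF4G, rose against wt proB (1.11, SE 0.214, adjusted p = 0.0115) and Pabpc4 against dHet proB (0.62, SE 0.179, adjusted p = 0.0389). Of 10 other initiation and recycling factors, 2 rose in B-ALL against wt proB, and 3 rose and 1 fell against dHet proB. The rises are 20% and 30%, beside 8.15% and 14.5% of all genes. The fall is 10%, near the 11% of all genes. Bzw2, which competes with eIF5 for eIF2, rose by 1.26 (SE 0.213, adjusted p = 0.00707) against wt proB, and Mcts1, which helps recycle the small subunit, by 0.99 (SE 0.252, adjusted p = 0.0323). Abce1, which splits ribosomes for recycling, rose by 1.04 (SE 0.294, adjusted p = 0.0362) against dHet proB. Mcts2, a retrocopy of Mcts1 at 0.375 to 1.19 FPKM in B-ALL, fell against dHet proB (-1.62, SE 0.279, adjusted p = 0.00706).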

How the data were processed

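RNA was measured in 11 libraries. Per the labels' protocols, libraries were made with the NEB E6420 kit, and the tools were, per the submitters' processing notes, Cuffnorm 2.2.1, Cuffdiff, Cufflinks 2.2.1, STAR 2.5.3a and bcl2fastq (2.20.0.422 and 0.3.1), with mm9 as the genome build. The authors deposited FPKM per gene symbol (24319 genes) for each library. Neither the annotation nor the use of strand nor the scaling in Cuffnorm is given in the sources used here. FPKM sums differ between libraries, so they were not scaled to 1 sum, and without counts no depth or counting error can be given.

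The libraries of each leukemic mouse were averaged on the log2(FPKM + 1) scale, so that the mouse was the replicate. The 11110 genes that reached 1 FPKM in 2 or more of the 8 units were tested. One model covered the 3 groups (limma 3.58.1, statmod 1.5.0, R 4.3.3), with a mean-variance trend, two-sided, with Benjamini-Hochberg adjustment over all genes tested and a threshold of 0.05. Fold changes are on the log2(FPKM + 1) scale, which understates changes of low genes. The limma F test over 11 libraries (11293 genes) compared the mice. Deviations of same-numbered libraries from their group means correlated in all 6 pairs between leukemic mice (r = 0.13 to 0.64). With 2 libraries per mouse, r is by construction the same for number 1 and number 2. It was 0.64 between mice 686 and 713, but 0.13 and 0.21 with mouse 760. With the proB groups r was above 0.1 in 3 of 14 pairs (-0.13 to 0.11), and the numbers were not taken as pairing. Whether they pair the libraries of all leukemic mice is not settled, and they entered as a block only as an alternative. Shares and ratios of FPKM were tested by exact permutation over units, two-sided. The limma fit was also run on simulated data with independent normal noise, which does not test the scaling or the pairing of libraries.

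Members, complexes, pathway lists and markers were chosen with earlier results of these data known. Library values are given for up to 2 called members per complex, direction and comparison with the largest change, for paralog sets, for 1 scaffold or catalytic member of each complex, and for members that differed between mice. Eif3b, Eif3f, Eif4enif1 and Eif5 are shown in addition, and Eif3j1 and Eif3j2 in part, after their values were seen. Pathway genes are named where they have 1 of the 2 largest changes among the called genes of a list and comparison. Shared 50-base words were counted over GENCODE M21 transcripts, and promoters were read from the RefSeq table of GRCm38.p6. Alternatives were another pseudocount (0.1), no filter, TPM, quantile normalization, no trend, 1 library per mouse, the mouse as a random effect, the replicate number as a block, only the groups compared, and leaving out each mouse and library.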

Additional observations from a re-analysis of the deposited data

How the results depend on the processing

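Each count of called members between groups was refitted under 24 alternatives, and no called member changed sign. The counts of pathway genes and of libraries without overlap were not refitted. After rescaling to TPM the members' median change was 0.23 in B-ALL against wt proB and 0.12 against dHet proB, and after quantile normalization 0.24 and 0.15. In B-ALL against dHet proB the count of called members was 9 without the filter on low values (12.5% of all genes called) and 9 with TPM (24.6%). With TPM the median of the eIF4E binding proteins in B-ALL against wt proB turned to -0.05. Leaving out 1 mouse or library gave counts of 1 to 12 against wt proB, 4 to 17 against dHet proB, 1 to 3 between the proB groups and 2 to 4 between mice, and medians of 0.35 to 0.46, 0.24 to 0.35 and 0.07 to 0.16. The cause of these shifts was not tested. With the replicate number as a block, 10 members were called against wt proB, 11 against dHet proB, 1 between the proB groups and 4 between mice. The depth is unknown, which limits the weight of members at a few FPKM (Eif4ebp3, Eif5a2).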
